A study of Mus musculus with 4 samples.

Results

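The type 2 cytokine genes Il4, Il13 and Il5, the genes Rad50 and Kif3a that lie among and beside them, and the cytokine gene Il9 were examined in lung group 2 innate lymphoid cells (ILC2s). These 6 genes were found by name among 38697 genes in the authors' deposited comparison of genotypes, and each of the 6 was among the 19193 genes that have an adjusted p. KO mice were R5/+Nrp1f/f, with floxed alleles of Nrp1 (which encodes neuropilin-1, a surface receptor that binds VEGF and semaphorins), and WT mice were R5/+. Both genotypes were C57BL/6, both were given bleomycin, a drug that injures the lung and leads to fibrosis, and no age is given in the labels. R5 is a reporter allele at Il5 that drives Cre recombinase, so deletion is directed to cells that have used the Il5 gene, and in both genotypes a single Il5 allele carries it. Each genotype had 2 samples, and each sample was sorted lung ILC2s pooled from 3 to 4 mice. No column of values per library could be matched to a sample by its label, so depth and the spread between samples are not shown. The SE of the fold change in the authors' deposited table is given instead, and how far it reflects each gene's own spread cannot be told here. Whether the pools came from separate experiments is not stated, so the p-values apply to these pools and cannot speak for the spread between experiments.

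ILC2s are tissue-resident lymphocytes without rearranged antigen receptors. Alarmins such as IL-33, IL-25 and TSLP drive them to make type 2 cytokines. IL-5 supports eosinophils, IL-13 acts on epithelium, smooth muscle and fibroblasts, IL-4 drives type 2 T cell differentiation and IgE switching, and IL-9 acts on mast cells and on ILC2s themselves. GATA3 is the factor most closely tied to the locus, and introns of Rad50, which encodes a DNA double-strand break repair protein, hold a locus control region for the neighbouring cytokine genes. Kif3a encodes a kinesin motor subunit used in transport along cilia.

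On chromosome 11 (mm10) the order was Kif3a (53567379 to 53601967, plus strand), Il4 (53602982 to 53618669, minus), Il13 (53631324 to 53634702, minus), Rad50 (53649519 to 53707319, minus) and Il5 (53720794 to 53725106, plus), by the GENCODE M21 annotation. The annotated ends of Kif3a and Il4 are 1014 bp apart and face each other. The gaps were 12.7 kb between Il4 and Il13, 14.8 kb between Il13 and Rad50, and 13.5 kb between Rad50 and Il5. An annotated antisense gene, Gm12214, overlaps 666 bp of Il5 on the opposite strand, and since no strand-marking step is described, reads from the pair cannot be told apart. Il9 lies on chromosome 13 (56479277 to 56482246, minus strand).

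The sequences before the starts of the 4 cytokine genes are shown because the cytokines are the members whose transcription GATA3 and activation-induced factors control. Each run is the 250 bases before the start, 5′ to 3′ on the gene's own strand, from RefSeq (GRCm38.p6), which had a start region for 5 of the 6 genes. It lists 2 starts for Il4, and the outer one, at the start of the annotated gene, is printed. Capitals mark GATA words, which are AGATAA and its variants that begin with T, end with G, or both, and the word GGAAA, which lies at the core of NFAT sites, on either strand.
Il5 (chr11:53720544-53720793): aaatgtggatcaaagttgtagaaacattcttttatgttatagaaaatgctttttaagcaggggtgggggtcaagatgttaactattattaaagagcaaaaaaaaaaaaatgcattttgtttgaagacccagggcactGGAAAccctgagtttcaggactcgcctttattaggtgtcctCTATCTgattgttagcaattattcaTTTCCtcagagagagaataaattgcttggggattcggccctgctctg
Il13 (chr11:53634703-53634952): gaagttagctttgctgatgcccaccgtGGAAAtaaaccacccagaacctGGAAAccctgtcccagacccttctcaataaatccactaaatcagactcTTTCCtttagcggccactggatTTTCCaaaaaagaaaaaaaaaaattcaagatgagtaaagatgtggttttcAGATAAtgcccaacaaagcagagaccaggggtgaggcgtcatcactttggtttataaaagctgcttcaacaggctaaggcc
Il4 (chr11:53618666-53618915): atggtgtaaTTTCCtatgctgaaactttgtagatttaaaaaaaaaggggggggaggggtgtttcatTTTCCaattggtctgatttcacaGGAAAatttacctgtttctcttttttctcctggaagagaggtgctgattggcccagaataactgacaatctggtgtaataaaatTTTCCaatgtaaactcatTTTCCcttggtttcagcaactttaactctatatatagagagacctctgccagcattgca
Il9 (chr13:56482258-56482507): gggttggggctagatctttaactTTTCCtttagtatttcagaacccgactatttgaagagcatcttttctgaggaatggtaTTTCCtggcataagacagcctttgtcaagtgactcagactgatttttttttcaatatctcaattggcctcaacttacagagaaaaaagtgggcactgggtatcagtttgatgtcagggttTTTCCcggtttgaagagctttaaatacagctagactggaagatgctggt
A GATA word stood 72 to 67 bases before the start of Il5, read on the opposite strand as AGATAG, and 81 to 76 bases before that of Il13 as AGATAA. The printed runs of Il4 and Il9 held none of the 4 GATA words. The region before the inner Il4 start (chr11:53617339-53617588), not printed, held TGATAG 80 to 75 bases before that start and no GGAAA. Of all 32851 start regions in the table, 26.5% held a GATA word in the same 250 bases. GGAAA was found 2 times before Il5, 4 times before Il13, 5 times before the outer start of Il4 and 3 times before Il9, and at least once in 55.6% of all regions. The AP-1 word TGACTCA, searched on both strands, stood 140 to 134 bases before the start of Il9, in none of the other 3 printed runs, and in 4.46% of all regions. These matches describe letters in a window and are not measured binding.

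Of the cytokines, Il5 was by far the most abundant. Its baseMean, the mean normalized count over the libraries in the authors' deposited table, was 6771, which placed it at rank 286 of the 19193 genes tested. Il4 had a baseMean of 220.2, Il13 of 187.3 and Il9 of 11.98. The locus genes that encode no cytokine lay between, with Rad50 at a baseMean of 1679 and Kif3a at 325.6. Per kb of annotated exon the baseMean of Il5 was 4406, against 312.4 for Rad50, 179.5 for Il4, 155.4 for Il13, 90.8 for Kif3a and 22.4 for Il9. The per-kb level of Il5 was thus 24.5 times that of Il4 and 28.3 times that of Il13. In both genotypes a single Il5 allele carries the R5 reporter, and its part in the Il5 counts was not tested. The exons of Il4 were taken over 4 annotated transcripts and those of Il5 and Il13 over 1 each, so the per-kb order of Il4 and Il13, which differ little, depends on that choice. Whether neighbours in this order differ beyond the spread between samples was not tested, since no spread of a level could be had. In bulk samples fewer cells making a transcript and less of it per cell cannot be told apart.

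By the authors' deposited adjusted p and a threshold of 0.05, 0 of the 6 genes passed between genotypes, against 0.552% of all genes tested. By direction, 0.453% of all genes passed as higher in KO and 0.099% as lower. At an unadjusted p under 0.05 the count was also 0 of 6, against 13.6% of all genes. Log2 fold changes are given as KO over WT, a direction read from the naming of the table with WT first, and the opposite reading would turn every sign, that of Nrp1 included. For 5 of the 6 the value was below 0, as it was for 46.0% of all genes tested, and the median of the 6 was -0.16, against 0.08 over all genes.

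For Il5 the authors' deposited table gave -0.11 ± 0.16 (SE) and an adjusted p of 0.798. Assuming that both genotypes weigh equally in the mean, this corresponds to 6503 normalized counts in KO and 7040 in WT. As deposited, the 95% interval ran from a fold of 0.748 to 1.14, so a larger loss or gain than these lay outside it. These limits hold for the deposited scaling only. When fold changes were centred on genes with a baseMean of at least 1000, the value of Il5 was 0.14, and the interval moves up with it. Il5 was the cytokine measured with the smallest error. The smallest test statistic among called genes was 3.64, and with its SE Il5 would have needed a fold of 1.48 in either direction to be called.

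For Il13 the authors' deposited table gave -0.33 ± 0.40 (adjusted p = 0.764), with derived means of 165.9 normalized counts in KO and 208.7 in WT. Its 95% interval ran from a fold of 0.464 to 1.36. Il4 had the lowest value of the 6, where the authors' deposited table gave -0.55 ± 0.37 (adjusted p = 0.533), with derived means of 179.1 in KO and 261.4 in WT. Its interval ran from a fold of 0.415 to 1.13. With their errors, the smallest observed fold in either direction that would have been called was 2.71 for Il13 and 2.53 for Il4. Smaller observed folds of these genes would not have been called with these 2 pools per genotype.

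For Rad50 the authors' deposited table gave -0.20 ± 0.21 (adjusted p = 0.719), with derived means of 1563 in KO and 1795 in WT. For Kif3a the authors' deposited table gave -0.08 ± 0.32 (adjusted p = 0.942), with derived means of 316.3 in KO and 334.9 in WT. The interval of Rad50 ran from a fold of 0.658 to 1.15 and that of Kif3a from 0.614 to 1.45. The intervals of the 5 locus genes all include no change and overlap one another. A difference between members was not tested, because it needs their covariance over libraries, which was not analysed here.

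Il9 was the only 1 of the 6 with a value above 0, for which the authors' deposited table gave 0.44 ± 1.502 (adjusted p = 0.933). Its derived means were 13.8 normalized counts in KO and 10.2 in WT. The interval ran from a fold of 0.177 to 10.5, and a fold of 44.2 would have been needed for a call. An observed change of Il9 smaller than this would not have been called with its error.

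**Figure D1:**
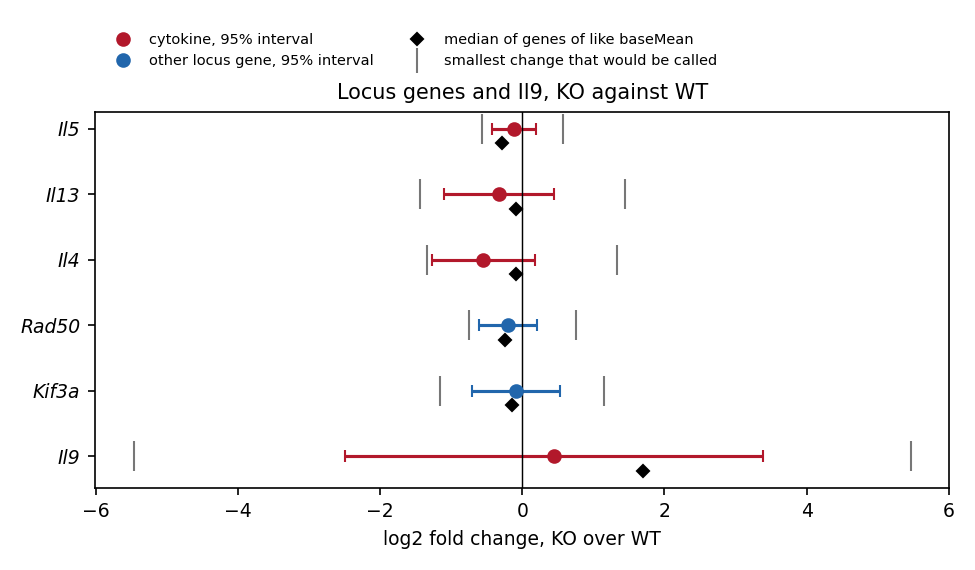
Log2 fold change of KO over WT (x axis) for each gene (rows), with bars for the 95% interval, diamonds for the median of the 201 tested genes nearest in baseMean, and grey ticks for the smallest change that would have been called. All 6 intervals cross 0, and the interval of Il9 is the widest, from a log2 value of -2.50 to 3.39.

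The level of a gene bears on how these values read, because abundant genes as a body stood below 0 and rare genes above it. Of the 2480 tested genes with a baseMean of at least 1000, 92.9% had a value below 0, with a median of -0.25. Of those with a baseMean under 50, 14.8% did. Beside the 201 genes nearest to it in baseMean, whose median was -0.28, Il5 was on the high side: 177 of the 201 had a lower value. Rad50 and Kif3a lay near the middle, with 126 and 125 of 201 lower, beside medians of -0.24 and -0.15. Il4 was on the low side, with 12 of 201 lower beside a median of -0.08, and Il13 had 39 of 201 lower beside a median of -0.09. Il9 had 32 of 201 lower, since rare genes like it had a median of 1.70. When fold changes were centred on the abundant genes, which adds 0.25 to each, Il5, Rad50 and Kif3a turned to values above 0, and Il4 and Il13 kept values below 0. The sign of Il5, Rad50, Kif3a and Il9 thus depends on the scaling, and none of the 6 was called under the scalings tried. The SE was 0.97 to 1.09 times the median SE of genes of like baseMean for all 6 genes, which does not show their own spread between samples.

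**Figure D2:**
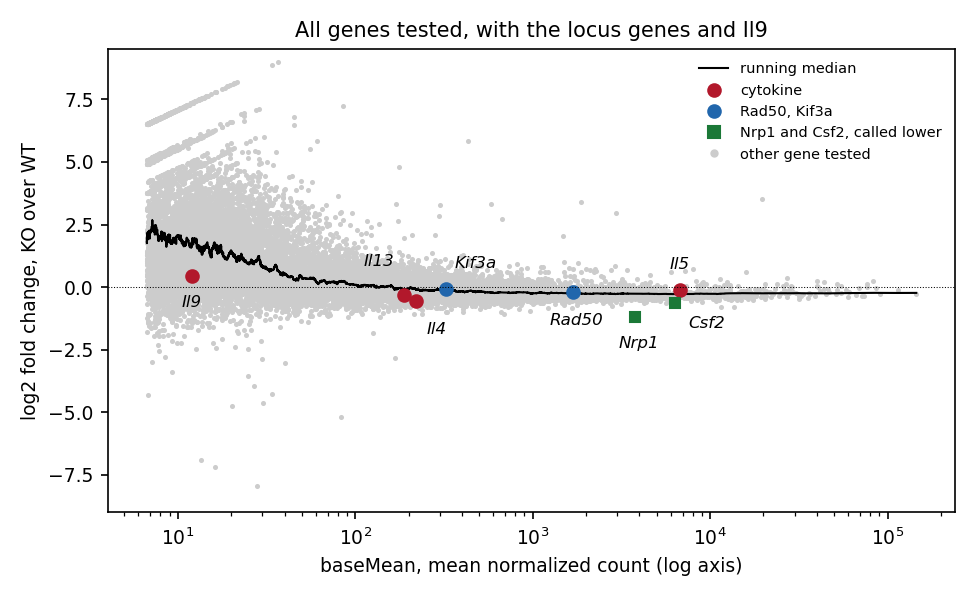
Log2 fold change of KO over WT against baseMean (log axis) for the 19193 genes tested, with the running median over baseMean as a line. Il5, Rad50 and Kif3a lie on or just above the line, and Il4, Il13, Il9, Csf2 and Nrp1 lie under it. Il4 is 0.46 below the line, Csf2 is 0.34 below it and Nrp1 0.91. Il9 lies farthest under it of the labelled genes, at -1.26 from the line.

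Nrp1, the targeted gene, was lower in KO, where the authors' deposited table gave -1.18 ± 0.21 (adjusted p = 1.27e-04), with derived means of 2313 in KO and 5229 in WT. It is a value over the whole gene and does not isolate the floxed part. Beyond Il5 the chromosome carries Irf1, an interferon-responsive transcription factor gene 44.9 kb away, and then a group of transporter genes before Csf2 and Il3, the genes of GM-CSF and IL-3, at 522.2 and 540.2 kb. Csf2 had a level like that of Il5, with a baseMean of 6370, and was lower in KO, where the authors' deposited table gave -0.62 ± 0.16 (adjusted p = 0.0335), with derived means of 5023 in KO and 7717 in WT. The call of Csf2 ended without a filter on baseMean (adjusted p = 0.0675), when centred on abundant genes (0.242) and when the abundance trend was removed (0.946). For Il3 the authors' deposited table gave -0.38 ± 0.49 (adjusted p = 0.782). The difference between Csf2 and Il5, whose intervals overlap, was not tested.

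Within 500 kb of a member lay 54 other genes of the table, of which 25 had an adjusted p. By the authors' deposited adjusted p, 0 of 25 passed. At an unadjusted p under 0.05 these 25 held 0 lower and 1 higher, against 3.95% and 9.62% of all genes tested. The 1 was Fstl4, a follistatin-like gene, for which the authors' deposited table gave 2.62 ± 1.33 (adjusted p = 0.365) and a baseMean of 23.6. The median of the 25 was 0.34, against 0.08 over all genes tested, and 6 of the 25 had a baseMean of at least 1000. Of all tested genes with a baseMean under 50, 14.8% had values below 0. The median of the 25 is the value of Irf1 itself, where the authors' deposited table gave 0.34 ± 0.18 (adjusted p = 0.401). Irf1 was the exception among the 6 neighbours with a baseMean of at least 1000, of which 5 stood below 0. Its adjusted p was 0.0656 when centred on abundant genes. The 3 neighbours with the smallest unadjusted p, Gm12217, Sowaha and Slc25a48, had no adjusted p, and their baseMean in the authors' deposited table was 4.49, 5.56 and 4.59. Their values there were 5.93 ± 2.85 (unadjusted p = 0.0378), 6.24 ± 3.02 (0.0391) and 5.96 ± 2.91 (0.0403), all higher in KO. The derived WT means of these 3 were 0.145, 0.146 and 0.145 normalized counts, near the floor.

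**Figure D3:**
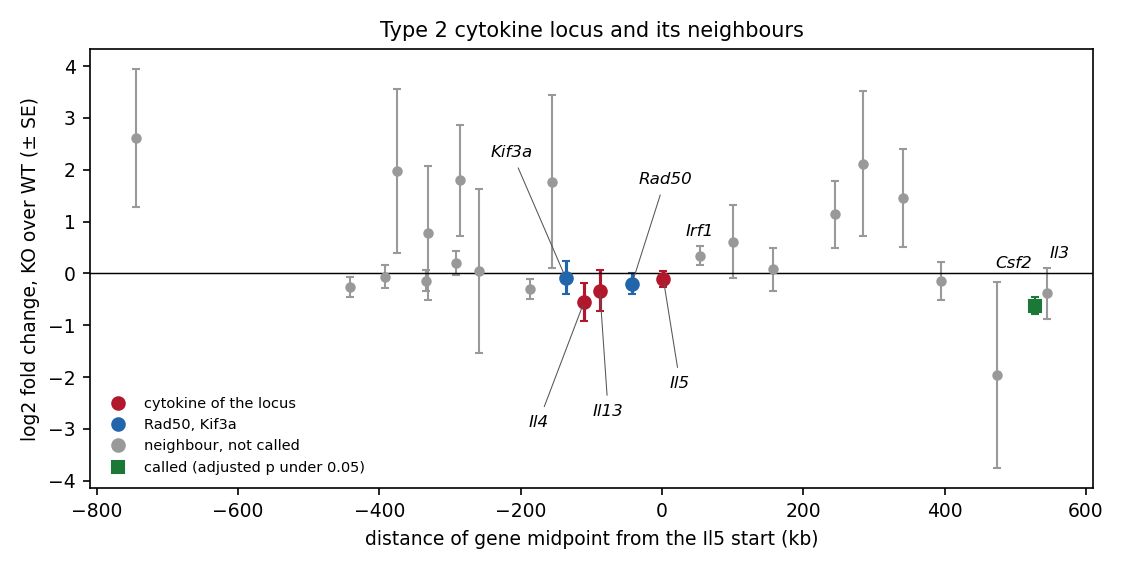
Log2 fold change of KO over WT with its SE (y axis) for the tested genes around the locus on chromosome 11, placed by the distance of the gene midpoint from the Il5 start in kb. The 5 locus genes lie between -0.55 and -0.08, and Csf2, drawn as a square, is the called gene in the window shown.

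Genes that act before the cytokine genes, and the receptors of the cytokines, were examined as 3 lists. Of 13 receptors that lead to type 2 cytokine production, 0 passed by the authors' deposited adjusted p, and 4 were lower and 0 higher at an unadjusted p under 0.05. Their median was -0.20. For the IL-33 receptor gene Il1rl1 the authors' deposited table gave -0.42 ± 0.14 (adjusted p = 0.118), and for the IL-25 receptor chains Il17ra and Il17rb it gave -0.39 ± 0.16 (0.234) and -0.12 ± 0.16 (0.798). The TSLP receptor chain Crlf2 was given -0.45 ± 0.31 (adjusted p = 0.555) by the authors' deposited table, and its partner Il7r -0.40 ± 0.17 (0.256). Il17rb turned to a value above 0 when centred on abundant genes. All 9 receptors of this list with a baseMean of at least 1000 had values below 0, as did 92.9% of all genes of that level, and 21.6% of genes of that level were lower at an unadjusted p under 0.05.

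Among 32 transcriptional regulators of the cytokine genes, 30 had an adjusted p, and 0 of 30 passed by the authors' deposited values. At an unadjusted p under 0.05, 6 were lower and 0 higher, against 3.95% and 9.62% of all genes tested. All 6 had a baseMean of at least 1000, a level at which 21.6% of all genes were lower by the same p. The median of all 30 was -0.25, beside -0.25 for all genes with a baseMean of at least 1000, a level that 18 of the 30 reached. For Gata3, with a baseMean of 39152, the authors' deposited table gave -0.34 ± 0.14 (adjusted p = 0.211). Stat6, which transmits the IL-4 and IL-13 signal, was given -0.42 ± 0.15 (adjusted p = 0.147) by the authors' deposited table, and Stat5b, which acts downstream of IL-7 and IL-2, -0.46 ± 0.20 (0.261). Irf4, a factor that also controls Il9 in T cells, was given -0.55 ± 0.34 (adjusted p = 0.481) by the authors' deposited table. Rora, an ILC2 lineage factor, Junb, an AP-1 subunit, and Maf, an Il4 activator in T cells, were given -0.16 ± 0.14 (adjusted p = 0.660), -0.12 ± 0.13 (0.738) and -0.03 ± 0.24 (0.979) by the authors' deposited table, and turned to values above 0 when centred on abundant genes. The T-bet and Eomes genes Tbx21 and Eomes, which mark type 1 cells, had a baseMean of 5.59 and 3.39 and no adjusted p.

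Of 8 receptor chains for the cytokines, 7 had an adjusted p (all but Il13ra2, with a baseMean of 4.61), and 0 of 7 passed by the authors' deposited values. At an unadjusted p under 0.05, 3 were lower and 0 higher, beside 21.6% lower among all genes with a baseMean of at least 1000 and 3.95% among all genes tested. These 3 were Il4ra, the chain shared by the IL-4 and IL-13 receptors, Il9r, and Il2rg, the common gamma chain, for which the authors' deposited table gave -0.46 ± 0.16 (adjusted p = 0.124), -0.44 ± 0.17 (0.178) and -0.42 ± 0.17 (0.216). They were also the only receptor chains of the list with a baseMean of at least 1000. For Il5ra, with a baseMean of 11.3, the authors' deposited table gave 2.64 ± 1.52 (adjusted p = 0.445). The median of the 7 was 0.01.

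**Figure D4:**
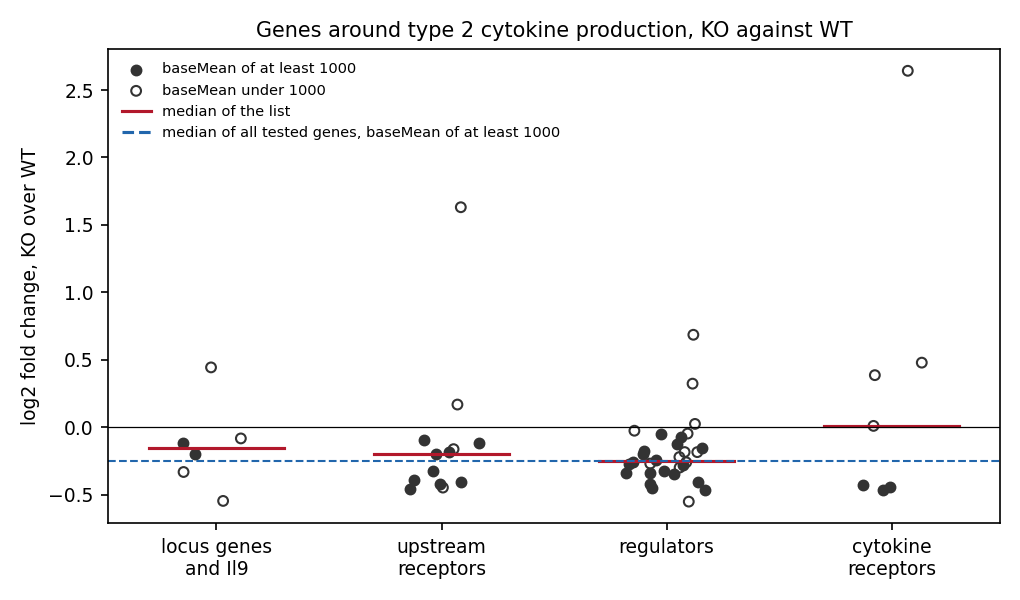
Log2 fold change of KO over WT (y axis) for the 6 genes and the tested genes of 3 lists, filled where baseMean is at least 1000, with the median of each list as a bar and the median of all abundant genes, -0.25, as a dashed line. The filled points of all 4 columns lie below 0.

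The cytokine genes are also used by other cells, so markers of these were read beside them. All 12 ILC2 markers were present, 11 of them with a baseMean of at least 1000, summing to derived means of 201706 in KO and 237203 in WT. All 12 had values below 0, as did 92.9% of the abundant genes, whose median was -0.25. Whether the ILC2 sums differ beyond this shift was not tested. The derived sums of 11 T cell markers were 6389 in KO and 8898 in WT. The receptor beta constant genes Trbc1 and Trbc2 had the highest baseMean of these, at 2938 and 2525, and 5 of the 11 had a baseMean under 20, among them Cd3d (18.1), Cd4 (13.8) and Cd8a (3.84). Trbc1, Trbc2, Lck and Cd3g made up most of both T cell sums, with values of -0.46, -0.34, -0.59 and -0.96. The running median at their levels was -0.27, -0.26, -0.25 and -0.24. Whether the T cell sums differ beyond this shift was not tested. Trac and Cd3e had a baseMean of 113.7 and 51.8. They were given -0.26 ± 0.56 (adjusted p = 0.884) and -0.44 ± 0.71 (0.840) by the authors' deposited table. Whether the transcripts of the T cell list came from T cells or from the ILC2s themselves was not tested, so the sums are not a measure of T cell share. Of the 11, 7 had values below 0 and 4 above it. These 4, all with a baseMean under 20, were given 1.25 ± 1.40 (Cd4), 1.03 ± 1.30 (Cd5), 5.70 ± 3.08 (Cd8a) and 2.66 ± 1.496 (Cd8b1) by the authors' deposited table. Cd3g was the 1 called, where the authors' deposited table gave -0.96 ± 0.24 (adjusted p = 0.0292). Its call ended without a filter on baseMean (adjusted p = 0.0588), when centred on abundant genes (0.103) and with the abundance trend removed (0.384). Of 13 basophil, mast cell and eosinophil markers, 12 were in the table, none passed, and the derived sums were 549.5 in KO and 448.1 in WT. Cpa3, a mast cell carboxypeptidase, made up most of these, at a baseMean of 413.1, while Mcpt8, the defining basophil protease, stood at 3.71 and Epx, the eosinophil peroxidase, at 1.98. Of the 12, 10 had a baseMean under 20, among them the mast cell protease genes Mcpt4 (4.87), Tpsab1 (4.86) and Cma1 (1.61). By direction, 11 of the 12 had values above 0 and 1 below. Of all tested genes with a baseMean under 50, 14.8% had values below 0. No marker found in the table was at 0. The part of these cells in the levels of Il4, Il13 and Il9 was not tested.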

How the data were processed

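RNA from sorted lung ILC2 pools was converted to full-length cDNA with the SMART-Seq HT kit, per the labels' protocols. The submitters' processing notes name HISAT2, Cufflinks and mm10 but give them no roles, and the counting tool is not given in the sources used here. Per the file headers, the authors deposited baseMean (a signal, the mean normalized count over libraries), a log2 fold change and its standard error, a statistic (score) and p-values before and after adjustment, under headings of a DESeq2 results table. Another 8 columns of values per library carry codes that match no label and were not used.

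The planned fit on values per library was therefore replaced by the authors' test, and likeness across samples, pairing and leave-one-out fits were not run. The sign was turned to KO over WT, because the table is named WT first without stating its numerator. With the opposite reading all directions, that of Nrp1 included, would turn. The statistic equalled fold change over error within 5.35e-08. Adjusting by Benjamini-Hochberg over the 19193 genes whose baseMean was at least 6.71 matched the deposited values within 3.96e-05. Intervals are fold change ± the normal 95% width. The running median took 100 ranks on each side. Centring used 2480 genes whose baseMean was at least 1000. Positions and exon lengths came from GENCODE M21, in which 38388 of 38697 identifiers matched. Python 3.11.15, pandas 2.3.3 and scipy 1.17.1 were used. The adjustment, centring and trend steps were run on simulated data whose noise was drawn with the deposited SE. Those runs check the steps only and cannot show how well that SE reflects the spread between pools.

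Members and lists were chosen with earlier results of these data known. Named genes were the 6, Nrp1, set genes of each list, any called, and the 3 of each list with the smallest p.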

Additional observations from a re-analysis of the deposited data

How the results depend on the processing

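No paired analysis was possible because no column of values per library carries a sample's label, and replicates could not be left out for the same reason. None of the 6 genes, and no gene of the 4 lists, was called under any of the 6 alternatives in which it was tested, or with neighbours limited to 250 kb. With a baseMean of at least 50, 5 of the 6 genes were tested, and Il9, Il5ra and Fstl4 gave no value. Adjusted p was lowest for Il4, at 0.529. All genes higher and lower in KO numbered 87 and 19 as deposited, 21 and 2 without a filter, 225 and 2 when centred on abundant genes, 20 and 2 with the abundance trend removed, and 266 and 40 at a threshold of 0.1. Higher genes numbered 22 with a baseMean of at least 50 and 39 among protein-coding genes. By construction, a filter alters how many genes are adjusted together, and centring shifts each value by 0.25. Other causes were not tested. With centring, values turned above 0 for Il5 (0.14), Rad50 (0.052), Kif3a (0.17), Rora (0.095), Junb (0.13), Maf (0.23) and Il17rb (0.13). With the trend removed they turned for Il5 (0.16), Rad50 (0.045), Kif3a (0.067), Rora (0.091), Junb (0.11), Maf (0.20), Il17rb (0.14) and, to a value below 0, Il9 (-1.26). Of 165 values recomputed for the 6 genes and other genes named with a test, markers other than Cd3g left out, 144 kept direction and call, 15 turned and 6, those of Csf2 and Cd3g, lost the call. Only centring and trend removal alter the fold changes, and all 15 turns came from them. Under the other alternatives direction was kept by construction. Errors were widest for Il9, at a baseMean of 11.98, and then for Il13 and Il4, and the parts of depth and of the spread between pools in them were not tested.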
